A study of Homo sapiens with 6 samples.

Results

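The globin genes encode the protein chains of haemoglobin. The 9 genes HBA1, HBA2, HBM, HBZ, HBB, HBD, HBE1, HBG1 and HBG2 were chosen by name, and 8 of them had a row among the 19498 genes of the table, 3 alpha-like and 5 beta-like. HBM, an alpha-like gene of unsettled role, was not analysed here. All 8 passed the filter on low values (10 or more in at least 3 of 6 libraries) that 16658 genes passed. Polyadenylated RNA was sequenced from K562, a human chronic myeloid leukaemia cell line with the BCR::ABL1 fusion kinase and erythroid and megakaryocytic features. The groups were 3 libraries labelled ACK KO and 3 labelled WT, all K562 cells in the same growth medium with no treatment named. ACK is the Cdc42-binding non-receptor tyrosine kinase encoded by TNK2. The labels name 1 cell line per genotype and do not say whether the replicates are separate cultures or clones, so genotype and line or clone cannot be told apart and p-values measure the spread between these libraries.

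Haemoglobin carries oxygen as a tetramer of a pair of alpha-like and a pair of beta-like chains, each holding a haem. The genes of each cluster are switched in sequence during development, from the embryonic HBZ (zeta) and HBE1 (epsilon) to the fetal HBG1 and HBG2 (gamma) and the adult HBD (delta) and HBB (beta), while HBA1 and HBA2 (alpha) serve from fetal life on. Distal enhancers act on them, a locus control region upstream of HBE1 and elements within NPRL3 upstream of HBZ. K562 is known for embryonic and fetal globins with next to no HBB.

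Values are normalised read counts as the authors deposited them, and the sums per library ran from 43478033 to 49450552 in KO-labelled and from 46690187 to 53301879 in WT libraries. Read depth is unknown, so errors are the spread over 3 libraries. TNK2 had 741, 506 and 598 in KO-labelled replicates 1 to 3, against 830, 613 and 642 in WT (exact two-sided permutation p = 0.4, where 0.1 is the smallest p possible), so its mRNA level does not check the labels. All 12 erythroid markers had a row, with sums of 78688 to 86713 in KO-labelled and 65452 to 93605 in WT libraries. Fewer markers of other cells had one. The megakaryocyte list had 2 of 7 with sums of 114 to 304 against 1046 to 1724 in WT, and the monocyte and granulocyte list 3 of 7 with 636 to 2299 against 1625 to 4148. The lymphoid list had 5 of 7 with 1009 to 1778 against 512 to 1814, and the fibroblast and epithelial list 5 of 8 with 4701 to 5294 against 4383 to 5188, mostly EPCAM. In these lists COL1A1, a fibroblast collagen gene, rose to 204, 74.6 and 121 in KO-labelled replicates 1 to 3, against 11.98, 4.68 and 32.2 in WT. Its log2 difference was 3.20 (adjusted p 0.0334, limma), and the adjusted p was 0.0516 to 0.123 without any 1 library other than WT replicate 3. ITGA2B, the megakaryocyte integrin gene, fell to 220, 94.0 and 250.2, against 1661, 1010.0 and 1387 in WT (log2 difference -2.93, adjusted p 0.00601, limma). The other tested gene of the megakaryocyte list, ITGB3, averaged 40.1 in KO-labelled and 42.1 in WT libraries (log2 difference -0.10, adjusted p 0.932, limma). EPCAM had a log2 difference of 0.04 (adjusted p 0.885, limma). The part of these marker genes in the globin results was not tested.

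HBE1 was the globin gene that differed most between the KO-labelled and WT libraries. It had 9391, 10443 and 17322 in KO-labelled replicates 1, 2 and 3, against 1387, 1031 and 1527 in WT. Each KO-labelled library lay above each WT library, by a wide gap and within each replicate number. The means were 12385 ± 4308 and 1315 ± 256 (SD, n = 3 each), and the log2 difference, fitted on log2(value + 1) as KO-labelled minus WT, was 3.20 (SE 0.27, 95% interval 2.57 to 3.83), or 9.19-fold with a limma adjusted p of 7.84e-04. By replicate number the log2 differences were 2.76, 3.34 and 3.50. Ranked by mean among all genes of the table, HBE1 stood at place 590 in the KO-labelled and place 6591 in the WT group. In bulk RNA, more cells making a transcript and more transcript per cell cannot be told apart.

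Of the 8 globin genes, 1 rose and 0 fell at an adjusted p under 0.05 (limma, Benjamini-Hochberg), while 10.3% of all genes tested passed in either direction, 5.37% as higher and 4.96% as lower. With the replicate number as a block, 2 rose and 0 fell, where 39.7% of all genes passed in either direction, 19.7% as higher and 20.0% as lower. The groups did not overlap for 2 of the 8, HBE1 and HBD, against 30.0% of all genes tested, 15.2% with KO-labelled above WT and 14.7% below. The median log2 difference of the 8 was 0.11, and that of all genes tested was -0.02.

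**Figure D1:**
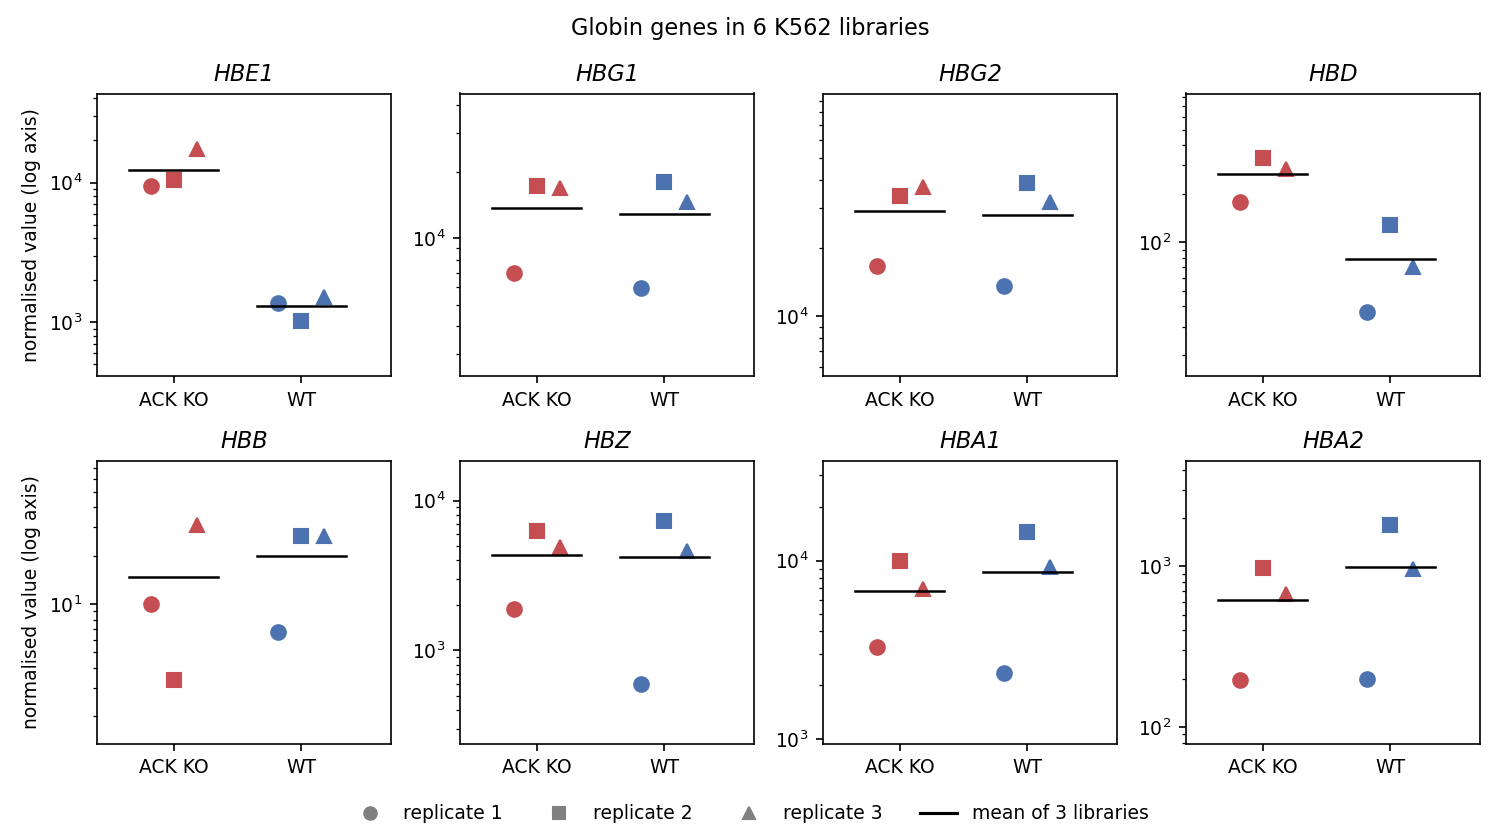
Normalised values (log axis) of the 8 globin genes in each library, KO-labelled left of WT, with the marker shape giving the replicate number and the black line the group mean. The 3 KO-labelled libraries of HBE1 (9391 to 17322) and of HBD (177 to 335) lie above all WT libraries, while the groups overlap for the other genes and replicate 1 is the lowest of its group for HBG1, HBG2, HBD, HBZ, HBA1 and HBA2.

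HBE1 lies on the minus strand of chromosome 11, and its annotated span in GRCh38 (GENCODE 29) runs from 5268345 to 5505652 because transcripts HBE1-201 and HBE1-202 start far upstream. The transcript HBE1-203 spans 5268352 to 5269945. The distant start is shared with HBG2-202 and with OR51B5, an olfactory receptor gene that spans 5303444 to 5505652. OR51B5 had 1609, 1942 and 1912 in KO-labelled replicates 1 to 3, against 1791, 3398 and 3327 in WT. Its log2 difference was -0.59 (SE 0.26, adjusted p 0.240, and 0.0130 with the replicate block, limma). ENSG00000239920, another model over the same stretch, had 834, 954 and 860 in KO-labelled libraries, against 846, 788 and 880 in WT. Neither model shared the upward difference of HBE1. Reads were divided among these overlapping models by a rule not given in the sources used here.

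HBG1 and HBG2, the fetal gamma chain genes, led the globins together in each library per coding length and showed no difference between genotypes beyond the replicate spread. They differ at 2 of 444 coding bases, so reads can be split between them and the sum is the safer value. HBG1 (chromosome 11, 5248079 to 5249859, minus strand) had 6944, 17266 and 16795 in KO-labelled replicates 1 to 3, against 5956, 18026 and 14541 in WT. HBG2 (annotated from 5253190 to 5505605, minus strand) had 16635, 33984 and 37161 in KO-labelled libraries, against 13594, 38677 and 32185 in WT. Replicate 1 was the lowest of its group for both genes and the groups overlapped.

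Summed, HBG1 + HBG2 averaged 42928 ± 16811 in KO-labelled and 40993 ± 19228 in WT libraries (SD, n = 3 each). The log2 difference was 0.11, with an adjusted p of 0.924 and a 95% interval of -1.03 to 1.25, and the interval was -0.10 to 0.32 with the replicate block (adjusted p 0.349, limma). Neither interval reached the HBE1 difference of 3.20. HBG2 over HBG1 was 2.40, 1.97 and 2.21 in KO-labelled and 2.28, 2.15 and 2.21 in WT libraries, a ratio that did not separate the groups. ENSG00000284931, a model from 5248270 to 5254783 that spans both genes, had 4675, 11840 and 11665 in KO-labelled, against 4398, 13409 and 9548 in WT libraries, and adding it to the sum gave a log2 difference of 0.10.

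HBD, which encodes the delta chain of the minor adult haemoglobin A2, was higher in KO-labelled libraries at a much lower level. Its values were 177, 335 and 285 in KO-labelled replicates 1 to 3, against 36.9, 129 and 70.5 in WT. The lowest KO-labelled library lay above the highest WT library. HBD averaged 266 ± 80.9 in KO-labelled and 78.7 ± 46.5 in WT libraries (SD, n = 3 each). The fitted log2 difference was 1.87 (SE 0.49, 95% interval 0.71 to 3.03), or 3.65-fold. The adjusted p was 0.0593 without and 8.08e-04 with the replicate block (limma), so HBD rose in the blocked fit and missed the threshold in the other. By replicate number the log2 differences were 2.23, 1.37 and 2.00. The unblocked call depended on the libraries, since leaving out WT replicate 2 took the adjusted p to 0.0390, while leaving out any other library kept it between 0.0639 and 0.200 (limma).

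The promoter of HBD is shown because HBD is the beta-like gene with an entry in the RefSeq promoter table (GRCh38.p14), which matched 2 of the 9 genes, the other being HBM. The 250 bases before the HBD start, chr11:5234484-5234733 on the minus strand, read 5′ to 3′ with capitals on each match to the motifs searched on both strands.
HBD: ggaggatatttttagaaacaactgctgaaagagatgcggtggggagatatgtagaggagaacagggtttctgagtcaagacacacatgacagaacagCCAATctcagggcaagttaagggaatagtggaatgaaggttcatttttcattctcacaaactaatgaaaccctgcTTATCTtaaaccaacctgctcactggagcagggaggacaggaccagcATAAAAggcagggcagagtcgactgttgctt
The NF-Y motif CCAAT matched at 149 to 153 bases upstream. The binding motif of GATA factors, AGATAA, matched on the opposite strand at 73 to 78, where the printed strand reads TTATCT. The box-like motif ATAAAA, akin to that of the TATA-binding protein, stood at 26 to 31, and the matches did not overlap. No match to CACCC, the box bound by KLF1 in other globin promoters, was found in this window. In the same window of all 35116 promoters of the table, CCAAT was found in 32.0%, AGATAA in 9.17%, ATAAAA in 14.8% and CACCC in 54.7%.

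HBB, the adult beta chain gene (chromosome 11, 5225464 to 5229395, minus strand), was low, at place 15572 by mean in the KO-labelled and place 14906 in the WT group of 19498 genes. It had 9.97, 3.36 and 31.2 in KO-labelled replicates 1 to 3, against 6.70, 26.7 and 26.7 in WT. The WT range lay inside the KO-labelled range, and the log2 difference was -0.65 with a 95% interval of -2.68 to 1.39 (adjusted p 0.722, limma). HBB and HBD are 92.8% identical over 444 aligned coding bases, so reads could be split between them and these low values are uncertain.

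**Figure D2:**
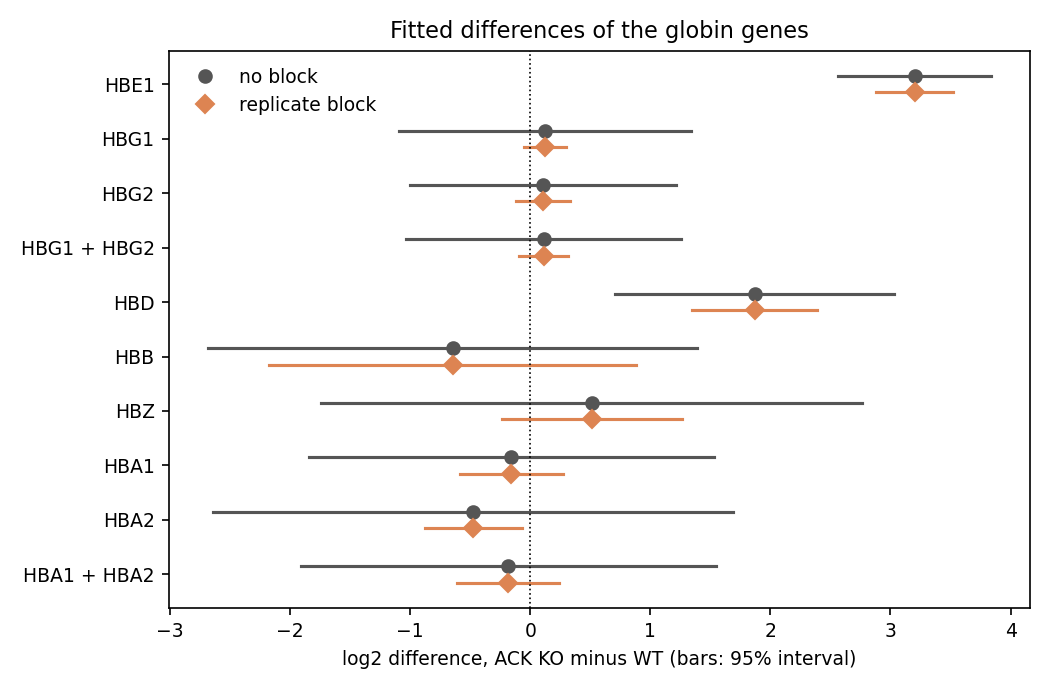
Fitted log2 differences (KO-labelled minus WT) of the 8 globin genes and the 2 summed pairs of copies, with bars for the 95% interval, without (circles) and with (diamonds) the replicate number as a block. HBE1 at 3.20 and HBD at 1.87 lie to the right of 0, and the interval of HBG1 + HBG2 narrows to -0.10 to 0.32 with the block.

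HBZ, the embryonic alpha-like chain gene (chromosome 16, 152687 to 154503, plus strand), did not follow HBE1. It had 1892, 6286 and 4916 in KO-labelled replicates 1 to 3, against 597, 7345 and 4599 in WT. The groups overlapped, and replicate 1 was the lowest of both. The log2 difference was 0.51 with a 95% interval of -1.74 to 2.77 (adjusted p 0.808, and 0.241 with the replicate block, limma). By replicate number it was 1.66, -0.22 and 0.10, so the positive sign rested on replicate 1 and became -0.064 without both replicate 1 libraries.

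HBA1 and HBA2, the alpha chain genes, have the same coding sequence over all 429 bases. HBA1 (chromosome 16, 176680 to 177522, plus strand) had 3279, 9876 and 6959 in KO-labelled replicates 1 to 3, against 2348, 14462 and 9195 in WT. HBA2 (172876 to 173710, plus strand) had 197, 971 and 677 in KO-labelled libraries, against 199, 1813 and 965 in WT. The groups overlapped for both genes. HBA1 over HBA2 ran from 10.2 to 16.6 in KO-labelled and from 7.98 to 11.8 in WT libraries. Since the coding parts are identical, this ratio rests at least in part on how reads were divided between the copies. The non-coding parts were not compared.

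Summed, HBA1 + HBA2 averaged 7319 ± 3696 in KO-labelled and 9661 ± 6878 in WT libraries (SD, n = 3 each). The log2 difference was -0.18, with an adjusted p of 0.916 and a 95% interval of -1.91 to 1.54, and the interval was -0.61 to 0.24 with the replicate block (adjusted p 0.453, limma). By replicate number HBA1 gave 0.48, -0.55 and -0.40, a mixed direction. HBA2 gave -0.014, -0.90 and -0.51, and its log2 difference was -0.47 with a 95% interval of -2.64 to 1.69, or -0.88 to -0.07 with the block (adjusted p 0.815 and 0.0637, limma). In a fit of replicates 2 and 3 alone with the block, chosen after seeing the data and resting on 1 residual degree of freedom per gene, the summed log2 difference was -0.50 with an adjusted p of 2.27e-05 (limma), and without the block it was 0.163. The blocked fit called 7906 of 16658 genes.

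Replicate 1 held less globin RNA than replicates 2 and 3 in both genotypes. As a share of the mean of replicates 2 and 3, replicate 1 was at 0.239 in KO-labelled and 0.143 in WT libraries for HBA2, 0.390 and 0.199 for HBA1, and 0.468 and 0.384 for HBG2. HBE1 differed from these in WT, where replicate 1 was at 1.08 of the mean of the other libraries, against 0.677 in the KO-labelled group.

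Levels were set side by side per kilobase of coding sequence, 429 bases for alpha-like and 444 for beta-like genes. In KO-labelled libraries the order of the mean levels was HBG1 + HBG2 (96686 ± 37864), HBE1 (27895 ± 9702), HBA1 + HBA2 (17062 ± 8615), HBZ (10174 ± 5241), HBD (599 ± 182) and HBB (33.4 ± 32.7; SD, n = 3). The ranges of HBE1 and HBA1 + HBA2 overlapped, as did those of HBA1 + HBA2 and HBZ. In WT libraries the order was HBG1 + HBG2 (92326 ± 43307), HBA1 + HBA2 (22519 ± 16032), HBZ (9745 ± 7910), HBE1 (2961 ± 575), HBD (177 ± 105) and HBB (45.1 ± 26.0; SD, n = 3). HBZ and HBE1 overlapped there, as did HBA1 + HBA2 and HBZ. HBE1 thus stood in the second place in the KO-labelled and in the fourth in the WT group.

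The make-up of the beta-like pool differed accordingly, which restates the HBE1 values as shares and was given no test. HBE1 made up 28.3%, 16.8% and 24.2% of the beta-like signal per coding length in KO-labelled replicates 1 to 3, against 6.61%, 1.78% and 3.16% in WT. The gamma genes made up 71.1%, 82.6% and 75.4% in KO-labelled, against 93.2%, 98.0% and 96.6% in WT libraries. Neither share overlapped between the groups. The HBD share averaged 0.491 ± 0.0804% in KO-labelled and 0.181 ± 0.0386% in WT libraries (SD, n = 3 each).

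Within the alpha-like pool the groups also separated, by less. HBZ made up 35.2%, 36.7% and 39.2% per coding length in KO-labelled replicates 1 to 3, against 19.0%, 31.1% and 31.2% in WT. The lowest KO-labelled share lay above the highest WT share, although neither HBZ nor HBA1 + HBA2 passed the test on its own. The shares were given no test, and the groups did not overlap for 30.0% of all genes tested. With spliced transcript lengths in place of coding lengths the shares were 29.4% to 33.0% in KO-labelled and 15.2% to 25.7% in WT libraries. The alpha-like to beta-like ratio per coding length was 0.168, 0.286 and 0.181 in KO-labelled and 0.155, 0.422 and 0.316 in WT libraries, with overlap. All globin values together made up 0.0886%, 0.160% and 0.178% of the table in KO-labelled libraries, against 0.0517%, 0.153% and 0.125% in WT.

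**Figure D3:**
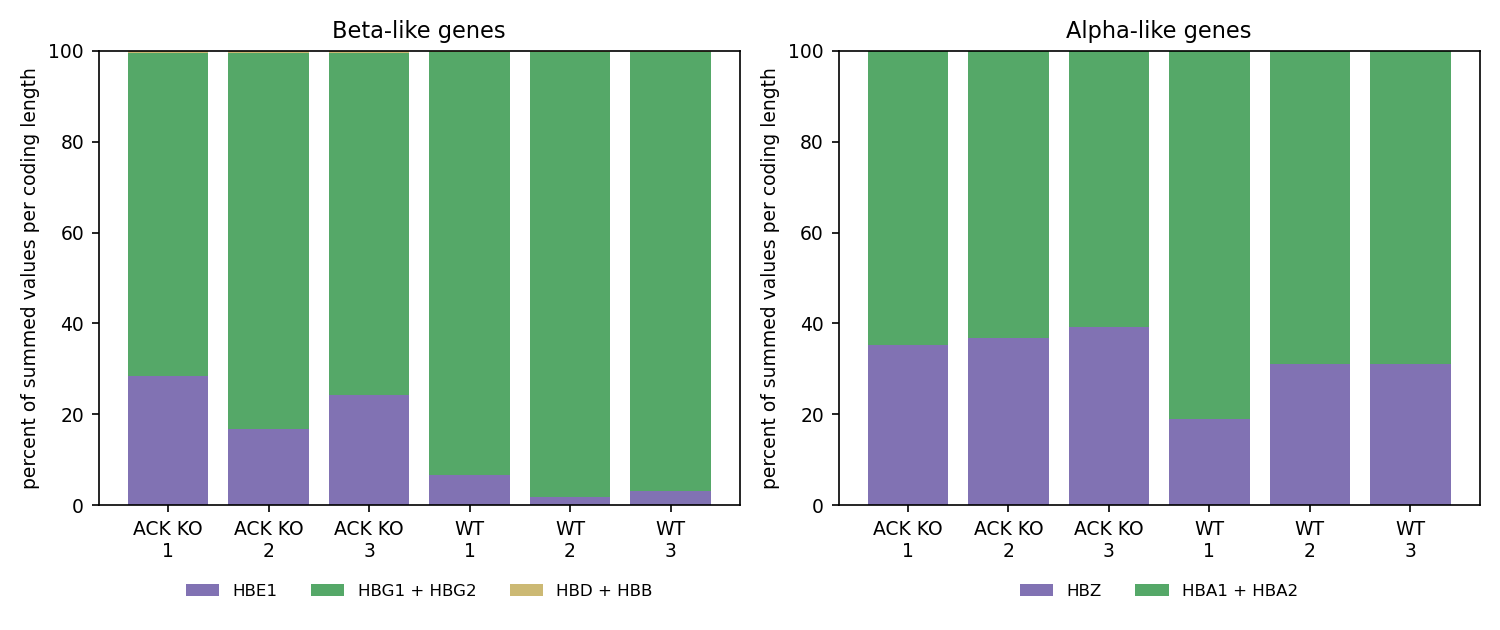
Shares of the summed globin signal per coding length in each library, KO-labelled left of WT, for beta-like genes (left) and alpha-like genes (right), with HBD + HBB under 1% and hardly visible. The HBE1 share is 16.8% to 28.3% in KO-labelled and 1.78% to 6.61% in WT libraries, and the HBZ share is 35.2% to 39.2% and 19.0% to 31.2%.

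Other transcripts of the clusters and other globins did not pass the test. Of 4 tested, 0 passed with or without the replicate block (limma), where 39.7% and 10.3% of all genes passed. HBQ1, the theta gene at the end of the alpha cluster, averaged 251 ± 37.2 in KO-labelled and 273 ± 73.0 in WT libraries (SD, n = 3 each). HBBP1, a transcribed pseudogene within the annotated span of HBD, averaged 96.9 ± 14.6 and 110 ± 42.3. BGLT3, a long non-coding RNA between HBBP1 and HBG1, averaged 216 ± 79.3 and 209.6 ± 59.0. MB, the myoglobin gene, averaged 33.3 ± 31.6 and 21.9 ± 27.0. The log2 differences of HBBP1 and BGLT3 were -0.10 (SE 0.37) and 0.01 (SE 0.36).

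Single genes around both clusters did not pass the unblocked test. Within 500 kb of the alpha cluster 34 genes were tested, with a median log2 difference of -0.045, 19 below 0 and 0 calls (4 up and 4 down with the replicate block, limma). Within 500 kb of the beta cluster 15 were tested, with a median of -0.31, 11 below 0 and 0 calls (1 up and 1 down with the block). Over all genes tested, 10.3% passed without and 39.7% with the block (limma). The median over chromosome 16 was -0.02 and over chromosome 11 it was -0.003. NPRL3, the nearest gene before HBZ and a subunit gene of the mTORC1 regulator GATOR1, averaged 2712 ± 460 in KO-labelled and 2928 ± 239 in WT libraries (SD, n = 3 each). LUC7L, a splicing factor gene on the other side, averaged 3199 ± 205 and 3939 ± 303 (log2 difference -0.30, adjusted p 0.196, and 0.0127 with the block, limma). Outside the models that overlap the beta cluster, the nearest tested genes were the pseudogene OR51AB1P (-0.14) and, 617 kb away on the HBB side, the TRIM family gene TRIM68 (log2 difference -0.40, adjusted p 0.260, limma).

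**Figure D4:**
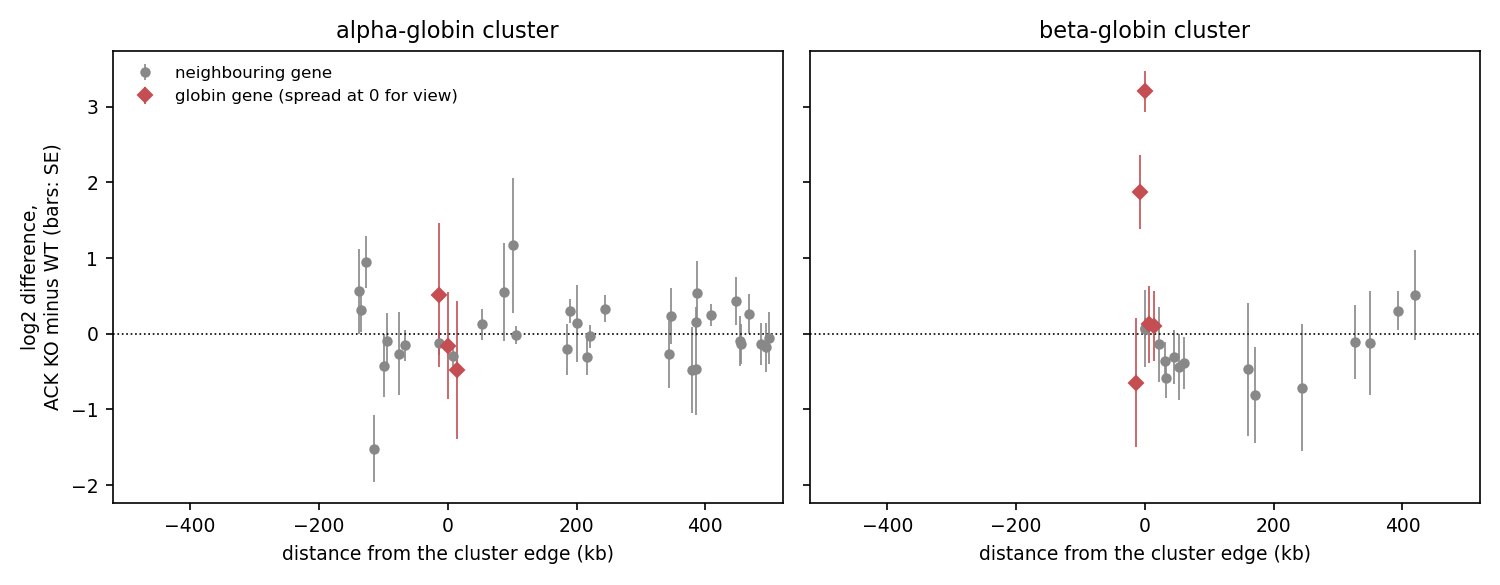
Log2 difference (KO-labelled minus WT, bars for SE) of tested genes within 500 kb of the alpha cluster (left) and the beta cluster (right) against distance from the cluster edge, with globin genes as red diamonds spread around 0. HBE1 and HBD lie at 3.20 and 1.87, while the medians of the neighbours are -0.045 and -0.31.

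Among genes that act on globin expression, the largest fall was that of a repressor. Of 25 genes listed as fetal globin repressors, whose roles were not checked here, 1 rose, 2 fell and 22 did not pass (4 up and 7 down with the replicate block, limma). These shares are near those over all genes tested, 10.3% without and 39.7% with the block. BCL11A, the zinc finger repressor of the gamma genes, had 15.4, 4.01 and 6.33 in KO-labelled replicates 1 to 3, against 983, 923 and 1072 in WT. It was at 15.4 or less in each KO-labelled library, and the log2 difference was -6.87 (SE 0.45, adjusted p 3.03e-04, limma). With a pseudocount of 5 in place of 1 this was -6.28, and it was -7.35 without KO-labelled replicate 1. The gamma genes, described above, had no difference beyond the replicate spread in the same libraries, and a link to BCL11A was not tested.

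NFIX, a nuclear factor I gene tied to gamma repression, fell to 269, 317 and 240 in KO-labelled libraries, against 672, 662 and 711 in WT (log2 difference -1.31, adjusted p 0.00562, limma). SOX6, known in mice to silence the embryonic epsilon-type gene, rose to 2017, 1333 and 1513, against 724, 411 and 488 in WT. Its log2 difference was 1.60 (SE 0.26, adjusted p 0.0116, limma), and the adjusted p was 0.0550 without KO-labelled replicate 3 and 0.0603 without WT replicate 3. SOX6 and HBE1 were both higher in KO-labelled libraries, and a link between them was not tested. IKZF1 and MYB, transcription factor genes, passed with the block alone, with log2 differences of -0.60 and -0.38 (adjusted p 8.28e-04 and 0.00616, limma). So did KLF3, DNMT1 and MBD3, with differences of 0.30, -0.20 and 0.24. The list's median was -0.14.

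Of 14 activators and loop factors, 0 rose, 1 fell and 13 did not pass (2 up and 5 down with the replicate block, limma), beside 10.3% and 39.7% of all genes. The list's median was -0.04. LDB1, which bridges the locus control region to globin promoters, had 4540, 4689 and 4261 in KO-labelled replicates 1 to 3, against 6856, 6333 and 6189 in WT. Its log2 difference was -0.52 (SE 0.11, adjusted p 0.0302, limma). The call was lost with column sums made equal (adjusted p 0.0914), with no intensity trend (0.0731) and without any 1 library other than WT replicate 1 (0.0683 to 0.150, limma). GATA1, the erythroid master factor, had 6980.5, 7029.8 and 6863 in KO-labelled, against 9877, 8842 and 8921 in WT libraries, a log2 difference of -0.40 whose adjusted p was 0.0637, or 0.00256 with the replicate block (limma). MAFG, ZFPM1 and TCF3 were lower and YY1 and GATA2 higher with the block alone, with log2 differences of -0.23, -0.36, -0.23, 0.21 and 0.24. KLF1, the factor of the CACCC box, had a log2 difference of -0.07, chosen after its value was seen.

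The fetal RNA-binding protein genes, which act on the fetal programme after transcription, had 0 calls among 4 (1 up and 3 down with the replicate block, limma), where 10.3% and 39.7% of all genes passed. With the block IGF2BP3 was higher by 0.42 and IGF2BP2, IGF2BP1 and LIN28B lower, with log2 differences of -0.39, -0.25 and -0.22. IGF2BP3 is a chromosome 7 gene, and the median log2 difference over that chromosome was 0.39 (834 genes). Among other listed genes on that chromosome, MAFK (0.22) and EIF2AK1 (0.46) had positive log2 differences and IKZF1 a negative one (-0.60). A part of the chromosome in these differences was not tested.

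Of 16 haem supply and haemoglobin assembly genes, 2 rose, 1 fell and 13 did not pass (5 up and 4 down with the replicate block, limma), beside 10.3% and 39.7% of all genes. The list's median was -0.08. ALAS2, the erythroid enzyme of the first step of haem synthesis, had 2604, 2301 and 1528 in KO-labelled replicates 1 to 3, against 529, 964 and 782 in WT. Its log2 difference was 1.51 (SE 0.29, adjusted p 0.0209, limma), and the adjusted p was 0.0612 without KO-labelled replicate 1, 0.0834 without KO-labelled replicate 2 and 0.0787 without WT replicate 3. ALAS1, the housekeeping form of the same enzyme, fell to 1345, 1136 and 1252, against 1849, 2022 and 1964 in WT (log2 difference -0.65, adjusted p 0.0243, limma). The ALAS1 call was lost with column sums made equal (0.0645) and without KO-labelled replicate 2 or 3 or WT replicate 2 or 3 (0.0989 to 0.117, limma). FECH, which inserts iron into the haem ring, rose 2.64-fold (adjusted p 0.00114, limma). AHSP, the chaperone gene of free alpha chains, did not pass the filter and had 2.00, 1.195 and 1.06 in KO-labelled, against 12.2, 11.8 and 3.27 in WT libraries. With the block PPOX and EIF2AK1, the haem-sensing translation kinase gene on chromosome 7, were higher (0.68 and 0.46), and CPOX, ABCB10 and SLC25A37 lower (-0.34, -0.28 and -0.25).

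**Figure D5:**
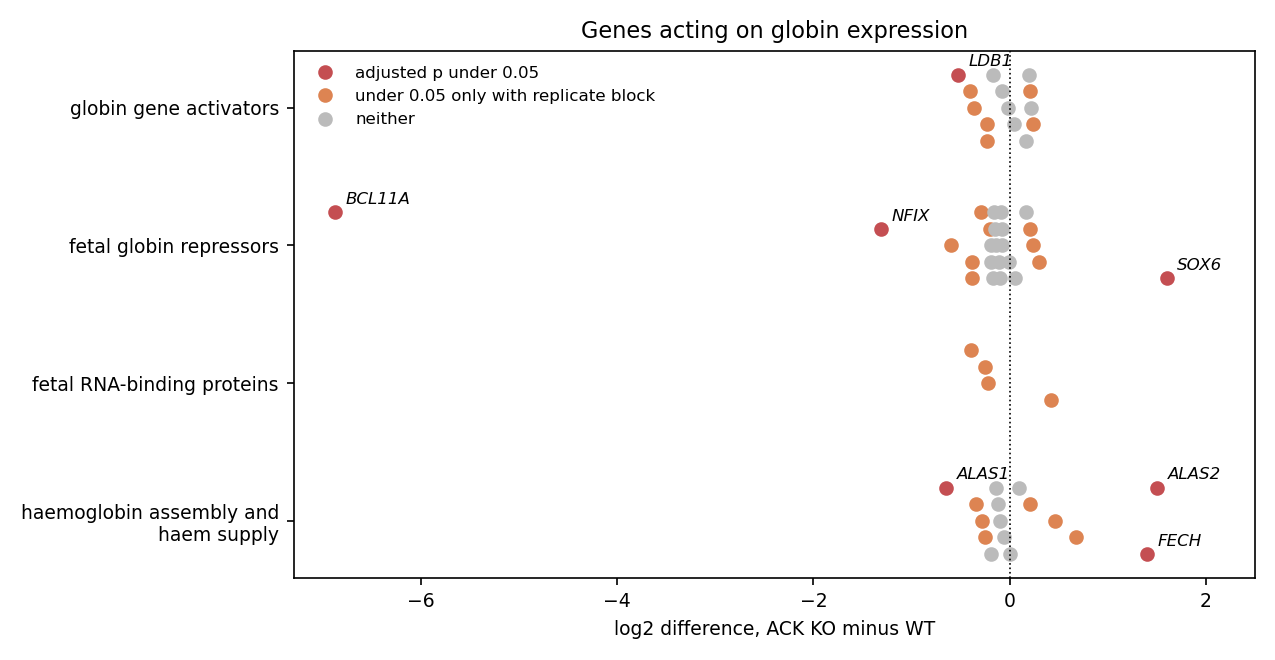
Log2 difference (KO-labelled minus WT) of the tested genes of 4 lists that act on globin expression, coloured by whether the adjusted p is under 0.05 (limma), under it with the replicate block alone, or neither. BCL11A at -6.87 lies far to the left, NFIX at -1.31 and LDB1 at -0.52 are lower, and SOX6 at 1.60, ALAS2 at 1.51 and FECH at 1.40 are higher.

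The genes most like a globin profile were found by the root mean square difference of log2 values, centred on their mean over the 6 libraries, among 12153 genes with a mean of 100 or more. Nearest to HBG1 + HBG2 were PBDC1 (0.0732), ABHD14A-ACY1 (0.0782), NDUFB2 (0.0789), a respiratory complex I subunit gene, and UMPS (0.0899), a pyrimidine synthesis gene. Each was low in replicate 1 of both genotypes, as PBDC1 with 513, 1139 and 1115 in KO-labelled and 466, 1161 and 1018 in WT libraries. The nearest to HBE1 were farther off. They were MAGI1 (0.285), a junction scaffold gene, IGFBP5 (0.297), an insulin-like growth factor binding protein gene, DLK1 (0.344), an imprinted gene of a Notch-like ligand, and SP6 (0.347). DLK1 had 10125, 9022 and 11058 in KO-labelled replicates 1 to 3, against 1583, 1406 and 1511 in WT. These genes were picked for their likeness, so it is a description.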

How the data were processed

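RNA of 6 K562 libraries was measured, 3 labelled ACK KO and 3 labelled WT, from stranded polyadenylated libraries per the labels' protocols. Each deposited value is a signal on a linear scale, a normalised count per gene and library, per the file headers. The submitters' processing notes name R 3.6.1, DESeq2 1.26.0, STAR 2.7.2b, FastQC 0.11.7, Salmon 1.1.0, SAMtools and the build GRCh38, with no roles. Annotation release and way of counting were not given in the sources used here. Whole reads could not be recovered from the values, so depth is unknown. At most 18.1% to 36.3% of values under 20 lay on a common step (tolerance 0.02 of a step). This does not show whether counts were whole before normalisation. The lowest mean of a gene was 3.38.

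Symbols came from a name table (19392 identifiers matched) and positions from GENCODE 29 (19112 matched). The test was that of limma 3.58.1 (R 4.3.3) with an intensity trend, on log2(value + 1), over 16658 genes with 10 or more in at least 3 libraries, adjusted by Benjamini-Hochberg with a threshold of 0.05, and checked on simulated data. HBA1 with HBA2 and HBG1 with HBG2 were also summed, in a table where each sum replaced its copies. Sums and shares over several genes were given no test. Same-numbered libraries of both genotypes deviated together (correlations across genes of 0.699, 0.521 and 0.342, each above 0.1). This pairing was taken from the data, since no label explains the numbers. KO-labelled replicate 2 with WT replicate 3 (0.257) and KO-labelled replicate 3 with WT replicate 2 (0.281) were also above 0.1. Unlike-numbered pairs with a replicate 1 library ran from -0.594 to -0.418. The correlations thus set replicate 1 apart more clearly than they matched replicates 2 and 3. With that limit, a second fit took the number as a replicate block. The members and lists were chosen with earlier results of these data known. Named are the members, list genes that passed with or without the block (up to 8 a list by smallest p), nearest neighbours and nearest profiles. Alternatives were other pseudocounts, filters and scalings, no trend, the block, summed copies and left-out libraries.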

Additional observations from a re-analysis of the deposited data

How the results depend on the processing

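HBE1 stayed higher and past the threshold in all 18 alternatives (log2 2.93 to 3.42). The replicate block took the genes called of 16658 to 6612, against 1721 without it, and the globin genes called to 2, and it changed no other globin call. Leaving out 1 library gave 726 to 2183 genes and 1 to 2 globin genes, with 929 and 726 genes without KO-labelled replicate 2 or 3 and 921 and 748 without WT replicate 2 or 3. Leaving out both replicate 1 libraries gave 4731 genes and 2 globin genes, and with the block 7906 and 4. With column sums made equal, with or without the globin genes, 2 globin genes passed, HBD being the second, and calls split into 1056 higher and 650 lower, against 894 and 827. That scaling moved the median of all genes to 0.08, against -0.02. Without 1 library the log2 differences ran from -0.92 to 0.39 for HBA1, -1.38 to 0.21 for HBA2, -0.96 to 0.38 for HBA1 + HBA2, -0.58 to 1.23 for HBZ, -1.39 to 0.056 for HBB, -0.36 to 0.55 for HBG1, -0.35 to 0.47 for HBG2, -0.35 to 0.50 for HBG1 + HBG2 and 1.42 to 2.31 for HBD. HBZ was at -0.064 without both replicate 1 libraries, with or without the block. In the same libraries HBA1 + HBA2 was at -0.50 and passed with the block (limma adjusted p 2.27e-05), not without it (0.163). Among the sums, alpha-like ranged from -0.72 to 0.38, beta-like from 0.07 to 0.68 and all globins from -0.10 to 0.63 without 1 library. The cause was not tested. Depth is unknown, so no counting error could be given for the low values of HBB and AHSP.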
